A study of Rattus norvegicus with 12 samples.

Results

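Voltage-gated calcium channel genes were followed in primary cultures of rat hippocampal neurons whose excitatory synaptic input had been blocked. The set held 10 genes, 8 for pore-forming subunits (Cacna1a, Cacna1b, Cacna1c, Cacna1d, Cacna1e, Cacna1g, Cacna1h and Cacna1i) and 2 for alpha2-delta subunits (Cacna2d1 and Cacna2d2). They were listed by symbol, with earlier results of these data known. Microarray probes carried a RefSeq transcript accession of 9 of them, among 21250 genes or unnamed targets tested; Cacna1d was not analysed here. Where a gene had several probes, the brightest gave its value.

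The cultures were prepared from Wistar rats at embryonic day 18 and kept for 14 to 15 days. The blocked cultures received 50 µM GYKI-52466, an antagonist of AMPA-type glutamate receptors, together with 10 µM MK-801, which blocks the open channel of NMDA receptors, for 9 h or for 26 h, and untreated cultures of each time were the controls. Each of the 4 groups had 3 arrays from independent cultures, so that the spread within a group was that between cultures, and the RNA of each array came from all cells of a culture. The groups were blocked 9 h, untreated 9 h, blocked 26 h and untreated 26 h.

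Voltage-gated calcium channels open on depolarisation and turn electrical activity into calcium entry. The pore-forming subunit sets the channel type. P/Q-type and N-type channels carry the calcium that triggers transmitter release at presynaptic terminals, L-type channels on cell bodies and dendrites are known for coupling activity to transcription, and T-type channels open near the resting potential and support burst firing. Alpha2-delta subunits bring the pores to the cell surface and to release sites and include the binding sites of gabapentin.

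Values below are log2 levels, the processed signal of a probe relative to the 75th percentile of its array, so that 0 is the brightness at that percentile. The probes of 1 gene cannot be set against those of another on this scale, and only the same probe is compared between arrays. Differences are blocked minus untreated on the log2 scale with their standard error (SE) from limma, and a gene was said to rise or fall when its p, adjusted by Benjamini-Hochberg over all targets, was under 0.05. All 9 genes lay well above background and below saturation on 12 of 12 arrays.

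The layout of the arrays decides how the comparisons read. The 12 arrays lay on 6 slides of 2 arrays each, scanned on 2 days, and each slide paired a blocked array of 1 time with an untreated array of the other time. Blocked 26 h and untreated 9 h arrays were scanned on day 1, and blocked 9 h and untreated 26 h arrays on day 2. Blocked minus untreated averaged over both times is therefore balanced over slides and days and is given first. The comparison within 9 h or within 26 h sets arrays of different days against each other, and there the effect of the blockade at that time and that of the scan day cannot be told apart. A difference within a slide or within a scan day sets blocked arrays of 1 time against untreated arrays of the other. There the blockade and the time cannot be told apart. In the averaged comparison, 6 of 6 activity-dependent genes used as a check (Npas4, Arc, Bdnf, Nr4a1, Fos and Egr1) fell with the blockade, where 2.21% of all targets fell. Their differences lay between -4.58 and -1.05. These genes were chosen with earlier results of these data known, so their fall is no independent check. The largest fall was that of Npas4, which was well above background on 0 of 3 blocked 26 h arrays. Between 77.6% and 86.8% of spots were well above background per array. The summed linear level of 8 vascular and meningeal markers was 11.1 to 14.4 in the 4 arrays of replicate 3 and at most 6.32 in the others, and the part of this in the results was not tested. The summed level of the 6 excitatory neuron markers tested of 7 listed (Tbr1 was not tested) was 11.3 to 12.4 in blocked 9 h arrays against 4.58 to 4.96 in untreated 9 h arrays, and 7.31 to 8.89 in blocked 26 h arrays against 6.39 to 8.59 in untreated 26 h arrays. Of these markers, 3 rose and 0 fell in the averaged comparison, and their part in the channel results was not tested either. The summed level of 8 pan-neuronal markers was 26.2 to 31.9 in blocked arrays and 25.5 to 32.7 in untreated arrays.

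**Figure D1:**
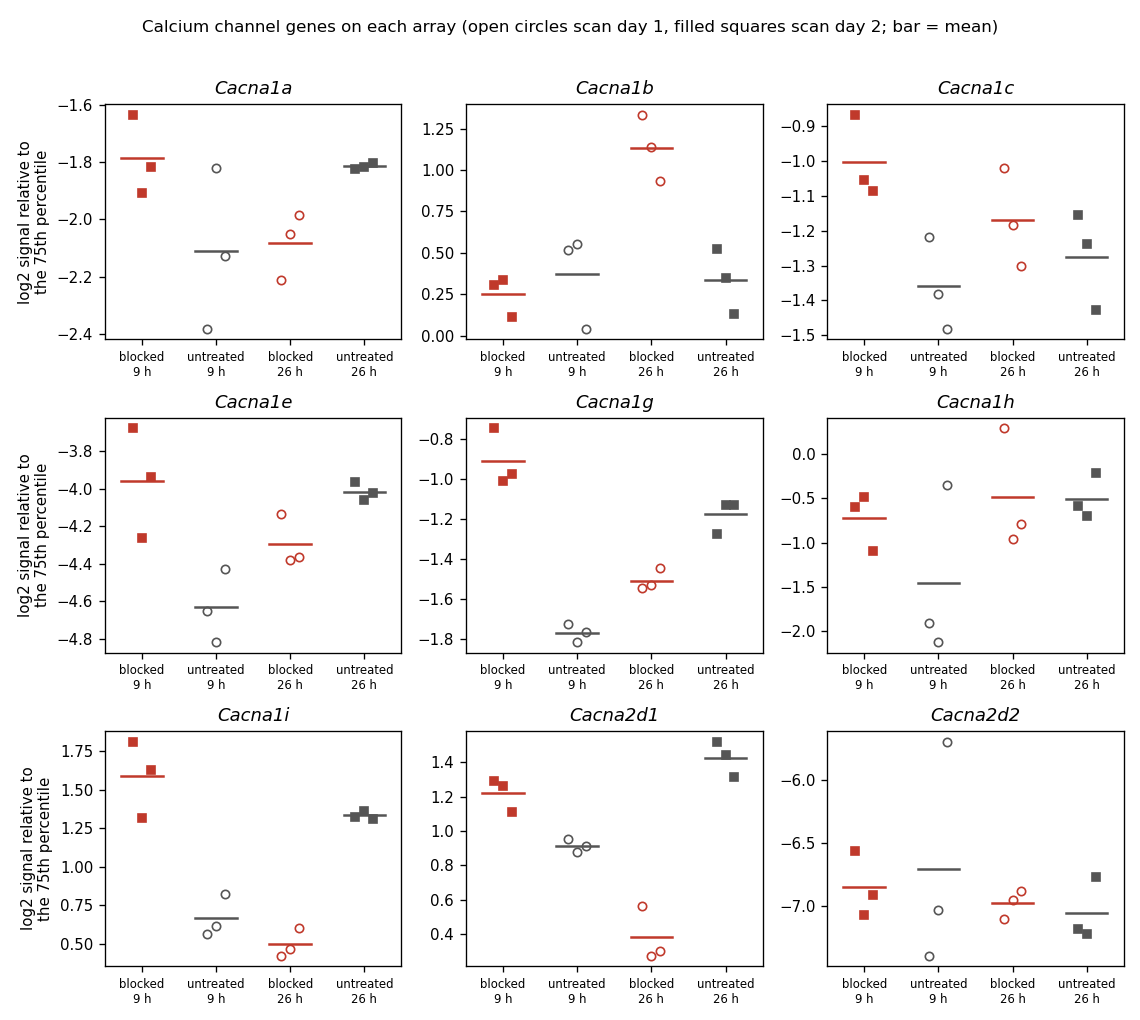
Log2 levels of the 9 measured calcium channel genes, a panel for each gene, with the 12 arrays as points (y axis, log2 relative to the array's 75th percentile), the groups along the x axis and the group mean as a bar; red marks blocked and grey untreated cultures, open circles scan day 1 and filled squares day 2. Cacna2d1 was lowest in blocked 26 h arrays (0.27 to 0.56), Cacna1b was highest there (0.93 to 1.33), and Cacna1i was high in blocked 9 h and untreated 26 h arrays, both scanned on day 2.

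Averaged over both times, Cacna2d1, an alpha2-delta subunit, was the one member that fell with the blockade, and no member rose. Against a background of 4.45% of all targets called (2.24% higher and 2.21% lower), 1 of 9 members was called. The median difference of the members was 0.20, beside -0.02 over all targets, and 7 of 9 members had a positive difference. With the replicate number as a block, which 13.2% of all targets then passed, 4 of 9 members were called: Cacna1b (N-type), Cacna1c (L-type) and Cacna1g (T-type) higher and Cacna2d1 lower. Between the 2 times of the study, averaged over blocked and untreated cultures, 1 of 9 members was called, Cacna1b, higher at 26 h, where 12.6% of all targets passed (4.87% higher and 7.75% lower at 26 h; 26.8% with the replicate block).

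**Figure D2:**
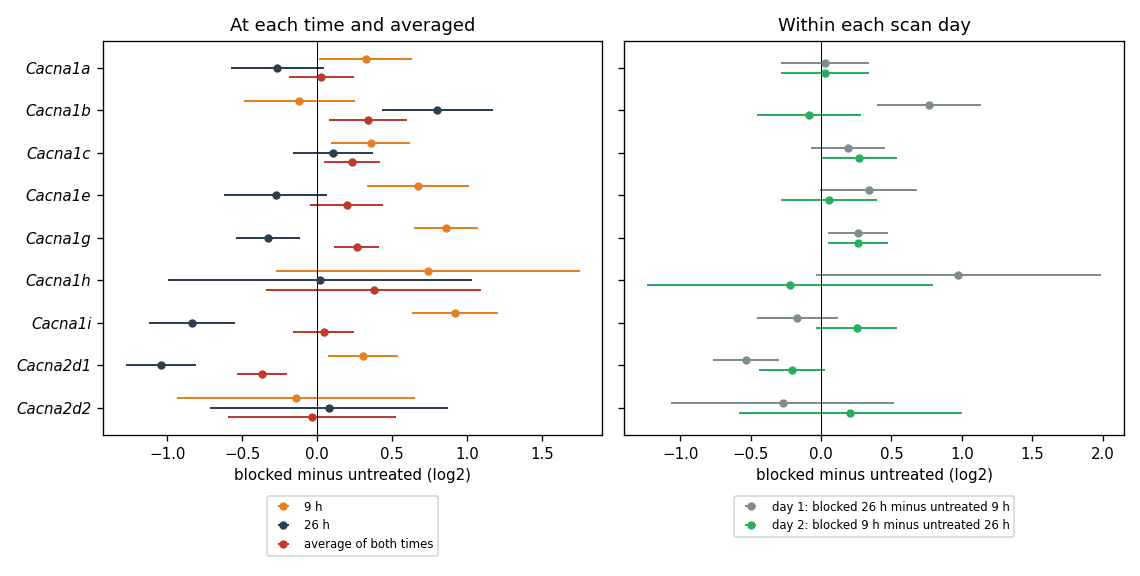
Blocked minus untreated for each measured member (x axis, log2 difference; rows, genes), at 9 h, at 26 h and averaged over both times (left) and within each scan day (right), with 95% confidence intervals from limma as bars. Within a scan day the blocked and untreated arrays were of different times. The averaged difference of Cacna2d1 lies at -0.37, and Cacna1i lies at 0.92 at 9 h and at -0.84 at 26 h.

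Cacna2d1 was 1.29, 1.26 and 1.11 in the 3 blocked 9 h arrays and 0.96, 0.88 and 0.91 in the untreated 9 h arrays. It was 0.56, 0.27 and 0.30 in the blocked 26 h arrays and 1.52, 1.44 and 1.31 in the untreated 26 h arrays. The blocked 26 h arrays were thus the lowest of the 12, and the blocked 9 h arrays lay above those of their untreated partners without overlap. On each of the 6 slides the blocked array was lower than the untreated array it shared the slide with, which was of the other time. These differences lay between -0.61 and -0.18, and 5.33% of the targets measured on all slides were lower on all 6. Averaged over both times the difference was -0.37 (SE 0.07, 95% interval -0.53 to -0.20, limma adjusted p = 0.0201), which is 1.29-fold lower in blocked cultures. Within scan day 1 it was -0.54 (adjusted p = 0.0088) and within day 2 it was -0.20 (adjusted p = 0.365). A lower level in RNA of a whole culture can mean fewer cells that make the transcript or less of it per cell, and these cannot be told apart. At 26 h Cacna2d1 fell by 1.05 on the log2 scale (SE 0.11, limma adjusted p = 0.000507), which is 2.06-fold lower. At 9 h it was higher by 0.31 (SE 0.11, adjusted p = 0.0646), and with the replicate block that call was made (adjusted p = 0.0163). The averaged call was lost with array median scaling (adjusted p = 0.115), with the matrix values the authors deposited (0.161), without untreated 26 h replicate 2 (0.0582), blocked 26 h replicate 2 (0.0608) or blocked 26 h replicate 3 (0.0546), and without all arrays of replicate 3 (0.209), while the difference stayed between -0.42 and -0.33.

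**Figure D3:**
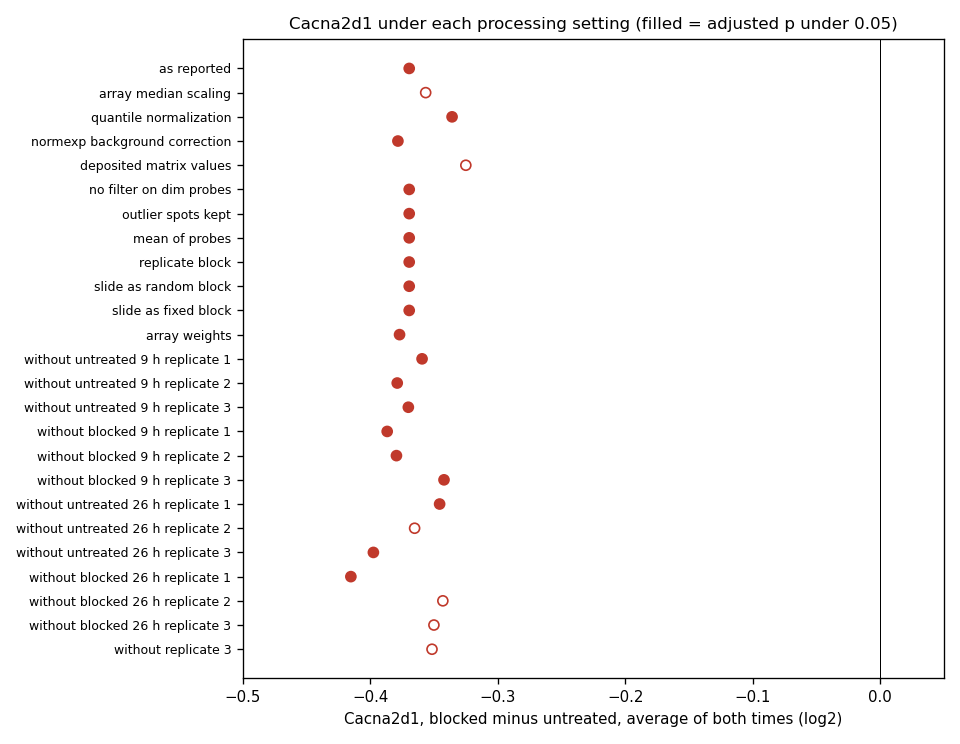
Averaged difference of Cacna2d1, blocked minus untreated (x axis, log2), under each processing setting and with arrays left out (rows); filled points passed an adjusted p of 0.05 and open points did not. The difference was below 0 in every setting shown, between -0.42 and -0.33, and 6 points are open.

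The promoter of Cacna2d1 is printed because this gene carries the averaged result, and those of Cacna1b and Cacna1c because these, called higher with the replicate block, were the other members whose window in the RefSeq promoter table held the same motif. Each window runs from 250 bases before to 50 bases after a transcription start, 5′ to 3′ on the gene's strand, in the build GRCr8. Capitals mark TGACG, the core of the cyclic AMP response element, which the activity-regulated factor CREB binds. It was searched on both strands. For Cacna2d1 the first of 3 windows is given, at chr4:20330098-20330397 on the minus strand. The window of Cacna1b is at chr3:27944236-27944535 on the minus strand. That of Cacna1c is at chr4:154051699-154051998 on the minus strand.
Cacna2d1: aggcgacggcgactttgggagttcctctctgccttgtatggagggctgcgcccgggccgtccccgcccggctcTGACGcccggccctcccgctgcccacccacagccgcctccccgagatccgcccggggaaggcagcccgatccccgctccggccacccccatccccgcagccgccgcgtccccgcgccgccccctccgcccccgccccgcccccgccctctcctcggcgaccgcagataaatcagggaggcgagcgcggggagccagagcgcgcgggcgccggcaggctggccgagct
Cacna1b: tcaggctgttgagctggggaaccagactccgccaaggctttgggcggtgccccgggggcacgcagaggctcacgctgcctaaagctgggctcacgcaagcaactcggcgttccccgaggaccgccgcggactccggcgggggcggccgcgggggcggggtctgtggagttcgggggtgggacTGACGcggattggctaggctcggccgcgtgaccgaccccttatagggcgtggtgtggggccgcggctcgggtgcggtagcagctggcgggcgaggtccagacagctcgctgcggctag
Cacna1c: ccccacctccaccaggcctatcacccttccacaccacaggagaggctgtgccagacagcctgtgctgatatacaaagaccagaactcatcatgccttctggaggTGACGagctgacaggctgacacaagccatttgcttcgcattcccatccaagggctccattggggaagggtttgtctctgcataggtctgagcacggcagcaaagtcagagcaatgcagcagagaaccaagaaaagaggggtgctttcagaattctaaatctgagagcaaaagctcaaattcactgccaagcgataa
Of the 10 genes, 7 had a window, and these 3 held TGACG in a window, 1 match each; the other 4 (Cacna1a, Cacna1d, Cacna1e and Cacna2d2) had no match in theirs, nor did the other windows of Cacna2d1. Among all 33469 windows, 21.2% held it. GC content was 78.3% in the window of Cacna2d1, 72% in that of Cacna1b and 51.7% in that of Cacna1c, where the median of all windows was 51.7%. The GC box GGGCGG, to which Sp1-type factors bind, occurred 7 times in the Cacna2d1 window, 3 times in that of Cacna1b and not in that of Cacna1c, on either strand, and 33.1% of all windows held it. These matches describe the letters in the windows and say nothing of binding.

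Cacna2d2, the other alpha2-delta subunit measured, was dim. It ranged over -7.07 to -6.56 in blocked 9 h arrays, -7.39 to -5.69 in untreated 9 h arrays, -7.10 to -6.88 in blocked 26 h arrays and -7.22 to -6.77 in untreated 26 h arrays, and the groups overlapped at both times. The averaged difference was -0.03 (SE 0.25, 95% interval -0.59 to 0.53, limma adjusted p = 0.977), an interval that holds the difference of Cacna2d1.

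Among the pore-forming subunits of presynaptic channels, Cacna1b and Cacna1a did not share a pattern by their brightest probes. Cacna1b, the N-type pore that omega-conotoxin blocks, was 0.30, 0.33 and 0.11 in blocked 9 h arrays and 0.51, 0.55 and 0.04 in untreated 9 h arrays. It was 1.33, 1.14 and 0.93 in blocked 26 h arrays and 0.52, 0.35 and 0.13 in untreated 26 h arrays. The blocked 26 h arrays stood above the other 9, and the 9 h groups overlapped. Replicate 3 was the lowest of its group for Cacna1b in 4 of 4 groups. At 26 h Cacna1b rose by 0.80 (SE 0.17, limma adjusted p = 0.0114), which is 1.74-fold, whereas at 9 h the difference was -0.12 (SE 0.17, adjusted p = 0.673). Averaged over both times it was 0.34 (SE 0.12, adjusted p = 0.161), and with the replicate block adjusted p = 0.00934. Within scan day 1 the difference was 0.76 (adjusted p = 0.0144) and within day 2 it was -0.09 (adjusted p = 0.875), and the blocked array was the higher one on 3 of 6 slides, all of day 1. A dimmer probe for another transcript of Cacna1b gave -0.12 (SE 0.22) at 26 h and 0.36 (SE 0.22) at 9 h, opposite in sign to the first and past no threshold, and with the mean of both probes the 26 h difference was 0.34 (adjusted p = 0.115). Cacna1b was also the member called between times, higher at 26 h than at 9 h by 0.42 (SE 0.12, adjusted p = 0.041). That call was lost without replicate 3, without 8 arrays taken singly (any blocked 9 h array, untreated 9 h replicate 3, and replicates 1 and 2 of both 26 h groups), and under 4 other settings (array median scaling, the deposited matrix, no filter on dim probes and the mean of probes), with adjusted p up to 0.122.

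Cacna1a, the P/Q-type pore of fast transmitter release, ranged over -1.91 to -1.64 in blocked 9 h arrays against -2.38 to -1.82 in untreated 9 h arrays, and over -2.21 to -1.99 in blocked 26 h arrays against -1.82 to -1.80 in untreated 26 h arrays. The groups overlapped at 9 h and not at 26 h. Its difference was 0.32 (SE 0.14, limma adjusted p = 0.131) at 9 h, -0.27 (SE 0.14, adjusted p = 0.221) at 26 h and 0.03 (SE 0.10, 95% interval -0.19 to 0.25, adjusted p = 0.942) averaged. A second, dimmer probe gave 0.18 (SE 0.26) at 9 h and -0.52 (SE 0.26) at 26 h. Without untreated 9 h replicate 2 the 9 h difference of Cacna1a was 0.47 and passed (adjusted p = 0.0381).

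Cacna1e, the R-type pore found in dendrites and spines as well as terminals, was -3.68, -4.26 and -3.94 in blocked 9 h arrays and -4.65, -4.82 and -4.43 in untreated 9 h arrays. It was -4.13, -4.38 and -4.37 in blocked 26 h arrays and -3.96, -4.06 and -4.02 in untreated 26 h arrays. The groups did not overlap at either time, with blocked arrays above at 9 h and below at 26 h. At 9 h Cacna1e rose by 0.67 (SE 0.15, limma adjusted p = 0.013), a call lost without untreated 9 h replicate 2 (adjusted p = 0.0516) and without replicate 3 (0.0746). At 26 h its difference was -0.28 (SE 0.15, adjusted p = 0.254) and averaged it was 0.20 (SE 0.11, adjusted p = 0.427).

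Cacna1c, the L-type pore that dihydropyridines block, differed little in size but in 1 direction on all slides. It was -0.87, -1.05 and -1.09 in blocked 9 h arrays and -1.22, -1.38 and -1.48 in untreated 9 h arrays. It was -1.02, -1.18 and -1.30 in blocked 26 h arrays and -1.15, -1.24 and -1.43 in untreated 26 h arrays. The groups overlapped at 26 h and not at 9 h, and replicate 3 was the lowest of each of the 4 groups. On 6 of 6 slides the blocked array was higher, by 0.18 to 0.34, which held for 5.47% of the targets measured on all slides. The averaged difference was 0.23 (SE 0.08, 95% interval 0.04 to 0.42, limma adjusted p = 0.185), and it passed with the replicate block (adjusted p = 0.0123) and with the slide as a block (adjusted p = 0.0341). It was 0.19 within day 1 (adjusted p = 0.356) and 0.27 within day 2 (adjusted p = 0.283; 0.0268 with the replicate block). At 9 h it was 0.36 (SE 0.12, adjusted p = 0.0588), and 0.00374 was the adjusted p with the replicate block; at 26 h it was 0.11 (SE 0.12, adjusted p = 0.599). A second, dimmer probe of Cacna1c gave 0.03 (SE 0.13) averaged.

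The T-type pores Cacna1g and Cacna1i were higher in blocked arrays at 9 h and lower at 26 h. Cacna1g was -0.75, -1.01 and -0.98 in blocked 9 h arrays and -1.73, -1.82 and -1.77 in untreated 9 h arrays. It was -1.55, -1.53 and -1.45 in blocked 26 h arrays and -1.27, -1.13 and -1.13 in untreated 26 h arrays. The groups did not overlap at either time. Cacna1g rose at 9 h by 0.86 (SE 0.10, limma adjusted p = 0.0007), which is 1.81-fold, and fell at 26 h by 0.33 on the log2 scale (SE 0.10, adjusted p = 0.0417), which is 1.26-fold lower. The 26 h call was lost without replicate 3 (adjusted p = 0.234), without 9 arrays taken singly (all but blocked 9 h, untreated 9 h and untreated 26 h replicate 1; adjusted p up to 0.136), and with array median scaling (0.119), the deposited matrix (0.132), no filter on dim probes (0.0637), the mean of probes (0.219) or the slide as a random block (0.0812). Its averaged difference was 0.26 (SE 0.07, adjusted p = 0.0583), and 0.0302 was the adjusted p with the replicate block. On 6 of 6 slides the blocked array was the higher one, by 0.12 to 0.53, and the difference was 0.26 within day 1 and 0.27 within day 2. A second probe of Cacna1g also rose at 9 h, by 0.42 (adjusted p over probes = 0.0462), and gave -0.05 at 26 h.

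Cacna1i, the T-type pore known from thalamic and other central neurons, was 1.81, 1.32 and 1.63 in blocked 9 h arrays and 0.56, 0.61 and 0.82 in untreated 9 h arrays. It was 0.42, 0.47 and 0.60 in blocked 26 h arrays and 1.33, 1.36 and 1.31 in untreated 26 h arrays. The groups did not overlap at either time, and the blocked 9 h and untreated 26 h arrays, which shared a scan day, lay together at the high end. Cacna1i rose at 9 h by 0.92 (SE 0.13, limma adjusted p = 0.00154), which is 1.89-fold, and fell at 26 h by 0.84 on the log2 scale (SE 0.13, adjusted p = 0.00351), which is 1.78-fold lower. Both differences passed with its second probe too, at 0.49 and -0.54. The averaged difference was 0.04 (SE 0.09, 95% interval -0.16 to 0.25, adjusted p = 0.892), the 2 scan days gave -0.17 (day 1) and 0.25 (day 2), and 2 of 6 slides had the higher level in the blocked array. Without replicate 3 the 26 h difference of Cacna1i was -0.90 and its adjusted p was 0.0575.

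Cacna1h, the T-type pore that nickel blocks at low concentration, had the widest spread within groups among the members. It was -0.60, -0.48 and -1.10 in blocked 9 h arrays against -1.91, -2.13 and -0.35 in untreated 9 h arrays, and 0.29, -0.96 and -0.79 in blocked 26 h arrays against -0.59, -0.70 and -0.22 in untreated 26 h arrays. The groups overlapped at both times, and the third untreated 9 h array stood above the other two of its group. The averaged difference was 0.38 (SE 0.32, 95% interval -0.34 to 1.09, limma adjusted p = 0.666), and the SD within groups was 0.63 where that of Cacna1g was 0.09. Without untreated 9 h replicate 3 the 9 h difference of Cacna1h was 1.29 (adjusted p = 0.0317), against 0.74 with it (adjusted p = 0.3).

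Within each time the counts of members read against a high background. At 9 h 3 of 9 members rose (Cacna1i, Cacna1g and Cacna1e) and 0 fell, where 11.4% of all targets rose and 9.62% fell, 21% in all. With the replicate block 5 of 9 members rose, Cacna1c and Cacna2d1 added, where 35.9% of all targets passed. At 26 h 1 of 9 rose (Cacna1b) and 3 fell (Cacna2d1, Cacna1i and Cacna1g), where 6.88% rose and 9.52% fell, 16.4% in all, and with the replicate block the counts were the same against a background of 31.9%. The median difference of the members was 0.36 at 9 h, beside 0.02 over all targets, and -0.27 at 26 h, beside -0.05. Blocked and untreated arrays did not overlap for 5 of 9 members at 9 h, as for 35% of targets, and for 6 of 9 at 26 h, as for 37.5%. Within scan day 1 the 2 groups did not overlap for 4 of 9 members, as for 30.1% of targets, and within day 2 for 3 of 9, as for 24%. Over all 6 blocked against all 6 untreated arrays, 0 of 9 members were free of overlap, where 1.47% of targets were. The difference between the effects, 26 h minus 9 h, passed for 6 of 9 members, 1 higher and 5 lower, and for 28.7% of all targets, 12.8% higher and 15.9% lower. With the replicate block it passed for 6 of 9 members and 44.4% of all targets. With the slide as a random block it passed for 4 of 9 members and 3469 of 21207 targets, Cacna1a (limma adjusted p = 0.143) and Cacna1e (0.0513) being lost.

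Over the 12 arrays, Cacna1g and Cacna1i followed each other most closely among the members (Pearson r = 0.89), then Cacna1e and Cacna1g (0.87) and Cacna1i and Cacna2d1 (0.80), and Cacna1b ran against Cacna2d1 (-0.73) and Cacna1i (-0.70). The arrays share scan days and treatments, so these values describe the 12 arrays. Among 12069 genes compared, those with the highest r to Cacna2d1 were Slc6a17 (0.97), Marchf11 (0.97) and Zdhhc6 (0.97). For Cacna1b they were Triqk (0.98), Kctd3 (0.98) and Tmem276 (0.97). For Cacna1i they were Zfp36l2 (0.99), Rtn4rl2 (0.99) and Zfp592 (0.99), for Cacna1g Them6 (0.98), Gpkow (0.97) and Or6al1 (0.97), and for Cacna1e Nmnat2 (0.94), Slc19a2 (0.93) and Mrpl58 (0.92).

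Of the other genes of the channel complex and its partners, 1 of 35 tested was called in the averaged comparison, beside 4.45% of all targets, and 4 of 35 were called with the replicate block, beside 13.2%. Of the beta subunits, which bind the pore inside the cell and set its surface level and gating, 0 of 4 passed. Cacnb3 had the highest difference at 0.40 (SE 0.10, limma adjusted p = 0.065; 0.00792 with the replicate block) and Cacnb2 the lowest at -0.35 (SE 0.11, adjusted p = 0.136). Cacnb3 was 3.55, 3.34 and 3.06 in blocked 9 h arrays and 2.50, 2.06 and 2.21 in untreated 9 h arrays. It was 3.07, 2.93 and 2.92 in blocked 26 h arrays and 3.34, 3.26 and 3.11 in untreated 26 h arrays. At 9 h it stood above without overlap and rose by 1.06 (adjusted p = 0.00148), and at 26 h it stood below by -0.27 (adjusted p = 0.25). Of the gamma subunit family, several of which are auxiliary subunits of AMPA receptors rather than of calcium channels, 0 of 8 passed, with Cacng2 highest at 0.32 (SE 0.10, adjusted p = 0.11; 0.0203 with the replicate block) and Cacng5 lowest at -0.22 (SE 0.16, adjusted p = 0.58). Cacng2, also called stargazin, brings AMPA receptors to the synapse.

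Among further pore and alpha2-delta genes, 0 of 3 tested of 5 listed passed, with Cacna2d3 highest at 0.03 (SE 0.08) and Cacna1s, the skeletal muscle L-type pore, lowest at -0.17 (SE 0.14). Of 5 inhibitors of channel surface expression or function, most of them small GTPase-like proteins, 0 passed; Gem was highest at 0.02 (SE 0.20) and Cbarp, which keeps beta subunits from the pore, lowest at -0.34 (SE 0.11, limma adjusted p = 0.155; 0.0235 with the replicate block). Of 10 calcium sensors and scaffold partners tested of 13 listed, 0 passed, with Dpysl2 (CRMP2, a binding partner of the N-type pore) highest at 0.15 (SE 0.12) and Thbs2, a secreted thrombospondin, lowest at -0.44 (SE 0.65). The medians of these lists ran from -0.22 to 0.08, beta and gamma subunits included, beside -0.02 over all targets.

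Calcium-activated potassium channels, which open on the calcium these channels admit, had the one call among the partners: 1 of 5 rose, Kcnmb4, the neuronal auxiliary subunit of the BK channel. Kcnmb4 was 1.21, 1.18 and 1.07 in blocked 9 h arrays and 1.30, 1.57 and 1.26 in untreated 9 h arrays. It was 2.01, 2.24 and 1.94 in blocked 26 h arrays and 1.21, 0.82 and 0.90 in untreated 26 h arrays. The blocked 26 h arrays were the highest of the 12, and the blocked 9 h arrays lay just below the untreated ones. The averaged difference was 0.43 (SE 0.10, limma adjusted p = 0.0312), with 0.69 within day 1 and 0.17 within day 2, and the blocked array was the higher one on 5 of 6 slides. At 26 h Kcnmb4 rose by 1.09 (SE 0.14, adjusted p = 0.00142), which is 2.12-fold, and at 9 h the difference was -0.22 (SE 0.14, adjusted p = 0.285). The averaged call was lost without 8 arrays taken singly (all but untreated 9 h replicate 2, blocked 9 h replicate 3, untreated 26 h replicate 1 and blocked 26 h replicate 3), without replicate 3 and under 3 other settings, with adjusted p up to 0.225, while the difference stayed between 0.39 and 0.49. Kcnn1, a pore of the SK channel, was lowest of its list at -0.09 (SE 0.09).

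**Figure D4:**
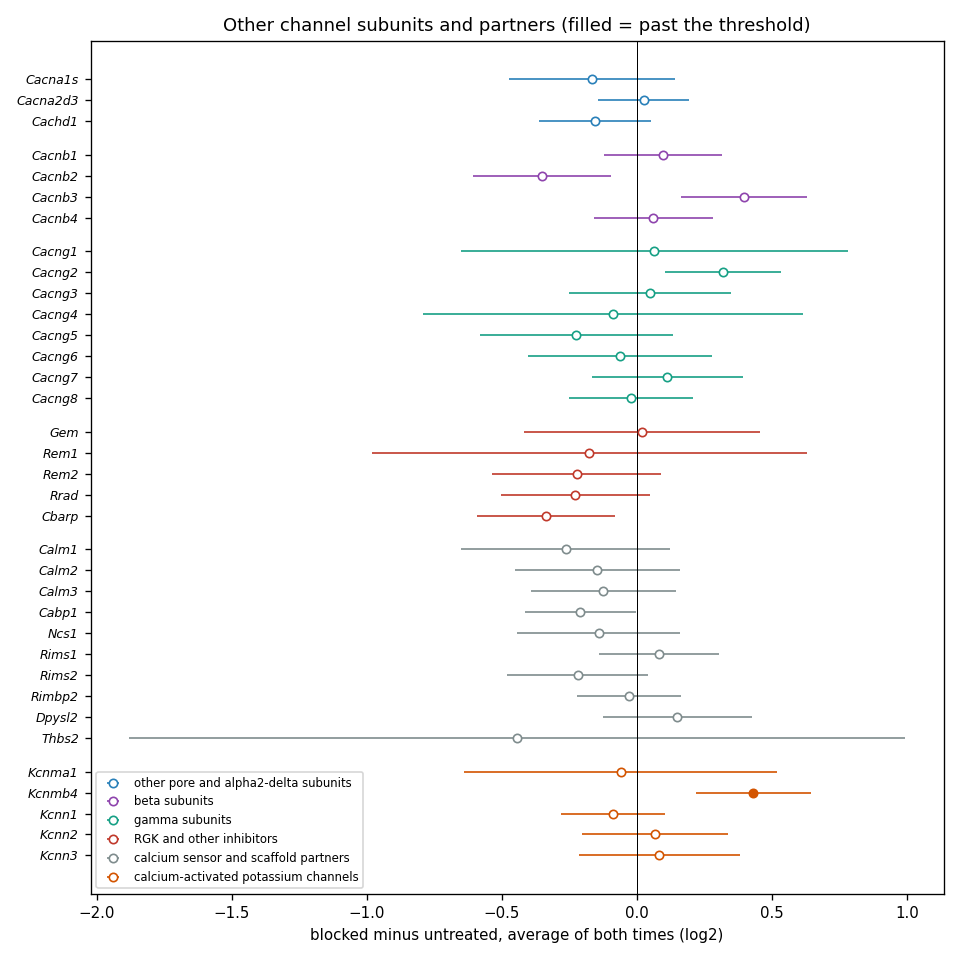
Averaged difference, blocked minus untreated (x axis, log2), of the tested genes of the channel complex and its partners (rows, grouped by list), with 95% confidence intervals from limma. Kcnmb4 at 0.43 is the one gene past an adjusted p of 0.05, and Cacnb3 at 0.40 is the next highest.

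Within single times more partners passed, and these are named after their values were seen. At 9 h Cacnb3 (1.06), Cacng7 (0.99), Cacng6 (0.84), Kcnn3 (0.62), Cacna2d3 (0.54), Cacnb1 (0.47) and Rims1 (0.45) rose and none of the 35 partners fell, where 11.4% of all targets rose; with the replicate block 13 rose and 1 fell, where 35.9% of all targets passed in either direction. At 26 h Kcnmb4 rose and 8 fell: Cacng6 (-0.96), Rem2 (-0.92), Cacnb2 (-0.88), Cacng7 (-0.76), Cbarp (-0.68), Cacna2d3 (-0.49), Cabp1 (-0.48) and Rimbp2 (-0.41), where 9.52% of all targets fell; with the replicate block 1 rose and 11 fell, where 31.9% passed in either direction. Cacna2d3, an alpha2-delta subunit of the same family as Cacna2d1, was called at both times in opposite directions, as were Cacng6 and Cacng7. Rem2 is an activity-regulated inhibitor of calcium channels, and Rims1 and Rimbp2 tether calcium channels at the presynaptic active zone. For these genes too, the effect of the blockade at a single time and that of the scan day cannot be told apart.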

How the data were processed

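Total RNA of 12 cultures (200 ng each) was labelled with Cy3 and hybridised to single-colour arrays, per the labels. The scanner output came from Agilent Feature Extraction 10.5.1.1, per the file headers, whose processed signal was used: an intensity from which background and a spatial trend had been removed array by array, not scaled between arrays, on a design of the build rn4. A second file deposited by the authors holds log2 values, which equalled the log2 processed signal minus a constant per array (slope 1.00). Its direction and scale were those of the scanner output, its columns were not centred on 0 (medians 7.57 to 7.75), and the rule behind the constants is not given in the sources used here.

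Each array's 75th percentile was subtracted from the log2 processed signal. Control spots were left out, 5671 outlier spot values were dropped, and spots of a probe were averaged. Of 30367 probes, 24034 were kept because every array of 1 or more groups had them well above background, and 18004 probes matched a symbol through their RefSeq accession. A gene was its brightest kept probe by mean. R 4.3.3 and limma 3.58.1 fitted 1 mean per group over 12 arrays, two-sided, with Benjamini-Hochberg adjustment; a few targets with dropped spots had no value in some comparisons. The number of arrays limits the precision: the median SE over all targets was 0.12 for the averaged difference and 0.17 at 1 time. Intervals are 95%.

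Replicate numbers of the labels were taken to pair cultures, since same-numbered blocked and untreated arrays of a time deviated together (r = 0.17 to 0.66 over 6 pairs, all over 0.1). Over the 12 same-numbered pairs across times r was -0.037 to 0.68, and 2 of them, both of replicate 2, did not exceed 0.1. By this measure pairing across times, which the block also assumes, was not shown for replicate 2. Its r was low within a time too, 0.18 at 9 h and 0.17 at 26 h. Across times it was 0.25 for blocked 9 h with blocked 26 h and 0.24 for blocked 9 h with untreated 26 h. The 2 arrays of a slide had the same replicate number, so for arrays that shared a slide pairing and slide cannot be told apart. The summed linear level of the vascular and meningeal markers was high in replicate 3 at both times. It was 11.1 to 14.4 in its 4 arrays and at most 6.32 in the others. Bright markers weigh most in such a sum, and not all markers went this way. Col1a1, Col1a2, Ptgds, Igf2 and Cdh5 were highest in replicate 3 in each group, whereas Dcn, Lum and Pecam1 were so in none. Alternatives were array median scaling, quantile normalization, normexp (offset 50, on the median signals), the deposited matrix, no filter on dim probes, outlier spots kept, the mean of probes, replicate and slide blocks, array weights, and arrays left out. The averaged comparison was checked on simulated arrays with independent noise. These had no slide, day or replicate structure, so the check does not cover such structure in the real arrays. The members, the 6 partner lists, the marker lists and the check genes were chosen with earlier results of these data known. All members were named; a partner was named where it passed or was highest or lowest of its list in the averaged comparison, and others are marked as named after their values were seen. The 3 genes most correlated with each called member were named. Of the marker lists not described above, in the averaged comparison 1 of 8 interneuron, 0 of 8 pan-neuronal, 0 of 7 astrocyte, 1 of 8 oligodendrocyte-lineage, 0 of 6 microglia and 0 of 8 vascular and meningeal markers passed, each call lower in blocked cultures, where 4.45% of all targets passed. With the replicate block, which 13.2% of all targets passed, 1 interneuron, 2 pan-neuronal, 1 astrocyte and 4 oligodendrocyte-lineage markers passed, all lower. So did 2 vascular and meningeal markers, 1 in each direction. Promoter windows came from RefSeq, build GRCr8.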

Additional observations from a re-analysis of the deposited data

Results flagged for a closer look

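The effect of the blockade at 26 h was compared with that at 9 h by limma's test of the difference (26 h minus 9 h, Benjamini-Hochberg over all targets). The test passed for 28.7% of all targets, 12.8% higher and 15.9% lower. For 6 of the 9 measured members the effect of the blockade differed between 26 h and 9 h. It was lower at 26 h for Cacna1i (-1.76, SE 0.18, adjusted p = 0.000259), Cacna2d1 (-1.35, SE 0.15, adjusted p = 0.000309), Cacna1g (-1.19, SE 0.14, adjusted p = 0.000356), Cacna1e (-0.95, SE 0.22, adjusted p = 0.00919) and Cacna1a (-0.59, SE 0.20, adjusted p = 0.0466). It was higher at 26 h for Cacna1b (0.92, SE 0.24, adjusted p = 0.0152). The call of Cacna1a was lost without 11 arrays taken singly (all but untreated 9 h replicate 2), without replicate 3 (adjusted p = 0.183) and under 5 other settings: array median scaling, no filter on dim probes, the mean of probes, array weights and the slide as a random block (0.143). That of Cacna1b was lost with the deposited matrix (0.0571) and with the mean of probes (0.22, adjusted p = 0.437). That of Cacna1e was lost with the slide as a random block (0.0513) and without replicate 3 (0.0693). Those of Cacna1g, Cacna1i and Cacna2d1 passed in each of the 23 alternatives, with limma adjusted p up to 0.0191. Blocked 26 h and untreated 9 h arrays were scanned on day 1 and the others on day 2, so that this difference and an effect of the scan day cannot be told apart. As a mean over arrays, day 2 minus day 1 was 0.88 for Cacna1i, 0.68 for Cacna2d1, 0.59 for Cacna1g, 0.48 for Cacna1e, 0.30 for Cacna1a and -0.46 for Cacna1b. These values are the same contrast of the group means on another scale with the sign turned, and they hold no further evidence on the scan day.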

How the results depend on the processing

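Among single-gene results and alternatives, 698 kept direction and side of the threshold, 40 newly passed it, 37 no longer did and 23 turned sign; the cause was not tested. The counts of members are given with those of all targets called in brackets. Averaged over both times, the members past the threshold numbered 1 as reported (944 of 21207 targets). They numbered 0 with array median scaling (722) or the deposited matrix (755), and 2 with quantile normalization (997) or array weights (1915). They numbered 4 with the replicate block (2800) or the slide as a random block (3070), 3 with the slide as a fixed block (2312), and 0 to 1 with arrays left out (360 to 983). At 9 h they numbered 3 (4466 of 21231 targets), 5 with the replicate block (7616) or array weights (5755), and 2 to 4 with arrays left out (1738 to 4636). At 26 h they numbered 4 (3479 of 21216 targets), 2 with the mean of probes (3181), and 2 to 4 with arrays left out (479 to 4173). For 26 h minus 9 h over all cultures they numbered 1 (2677 of 21207 targets). They numbered 0 with array median scaling (2481), the deposited matrix (2272), no filter (2068 of 26847) or the mean of probes (2650). They numbered 3 with the slide as a random block (6121), and 0 to 1 with arrays left out (371 to 2545).
Sign turns were in small differences past no threshold. The averaged difference of Cacna1a was -0.011 with normexp, -0.070 with the mean of probes and -0.045 with array weights, and -0.040 to 0.10 with arrays left out. That of Cacna2d2 was 0.011 with quantile normalization, 0.012 with the deposited matrix and 0.027 with array weights, and -0.20 to 0.28 with arrays left out; that of Cacna1i was -0.014 to 0.11 with arrays left out. At 9 h Cacna1b was 0.12 with the mean of probes, and Cacna2d2 was -0.49 to 0.40 with arrays left out. At 26 h Cacna1h was -0.0023 with normexp and -0.10 with array weights, and -0.37 to 0.31 with arrays left out; Cacna2d2 was -0.21 with normexp and -0.0046 to 0.22 with arrays left out.
Over all targets, 944 calls in the averaged comparison became 2800 with the replicate block, 3070 and 2312 with the slide as a random or fixed block, 1915 with array weights, and 360 to 983 with arrays left out. The replicate block gave 7616 calls against 4466 at 9 h, 6764 against 3479 at 26 h (7315 with array weights), 9426 against 6078 for the difference between the effects at 26 h and 9 h (3469 with the slide as a random block) and 5677 against 2677 for 26 h minus 9 h over all cultures (6121 and 5195 with the slide as a random or fixed block). Without replicate 3 these counts were 1738 at 9 h, 479 at 26 h, 3086 for the difference between the effects and 371 for 26 h minus 9 h over all cultures. Normexp moved the median over all targets of the difference between the effects, 26 h minus 9 h, to -0.18, against -0.07. Beside the calls given with their results, the replicate block changed no member's call. Cacna2d2 lay near the lowest signal well above background, which limits what its level can show.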
